A study of Mus musculus with 13 samples.

Results

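The interferon-gamma inducible GTPases are 10 mouse genes, Gbp2, Gbp3, Gbp5, Gbp7, Gbp8, Iigp1, Igtp, Irgm1, Irgm2 and Tgtp2. They were taken by name from the 22598 measured features, all 10 were present and all 10 passed the filter on low counts. The counts came from single-cell RNA sequencing of 22148 cells sorted by flow cytometry from mouse spinal cord, in 13 libraries. Mice were healthy or had EAE, experimental autoimmune encephalomyelitis, in which immune attack on myelin inflames the spinal cord as in multiple sclerosis. All groups shared the genotype Cx3cr1YFPCreERT2:R26tdTomato, a fate-mapping line in which an inducible Cre recombinase made from the Cx3cr1 locus turns on a red fluorescent mark that long-lived resident cells keep, so the gate depends on Cx3cr1 activity when Cre was switched on. The groups were resident cells of healthy controls (3 libraries), resident cells at the peak of EAE (2 libraries) or in its chronic phase (3 libraries), and infiltrating cells at the peak (2 libraries) or in the chronic phase (3 libraries). Age, sex and the way EAE was induced were not given in the sources used here, and no infiltrating group was labelled as a control.

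Guanylate-binding proteins (GBPs) and immunity-related GTPases (IRGs) are enzymes of cell-autonomous defence: they gather on membranes that enclose intracellular microbes and disrupt them. Interferon-gamma, made chiefly by T and natural killer cells, binds its receptor, and the kinases Jak1 and Jak2 pass the signal on towards GAS elements in promoters. The response also induces Irf1, a transcription factor that binds interferon-stimulated response elements (ISREs), sites shared with the response to type I interferon. Among the IRGs, Iigp1 and Tgtp2 are effectors that load onto the vacuole, and Irgm1, Irgm2 and Igtp are regulators that keep the effectors off the cell's own membranes. In microglia, the resident macrophages of the central nervous system, these genes are used as readouts of an interferon response.

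Counts of unique molecular identifiers (UMIs) were summed over the cells of 1 deposited class per library: microglia in resident libraries, and monocytes plus macrophages in infiltrating libraries. A level is given as CPM, the gene's UMIs per 1000000 UMIs of that class sum. Cells per sum numbered 1149 to 3237 for control, 486 and 704 for peak and 1966 to 4293 for chronic microglia. Infiltrating sums held 357 and 1709 cells at the peak and 285 to 507 in the chronic phase. Total UMIs per sum ran between 2262491 and 20256465. The typical class cell carried a median of 3017 to 4476 UMIs in control, 8446.5 and 8521 in peak and 2465.5 to 3544 in chronic microglia, and 6552 to 11414 in infiltrating monocytes and macrophages. In chronic infiltrating b only 14.5% of cells were monocytes or macrophages. All 6 microglial markers were detected in every resident sum, at a summed 20332, 16079 and 15825 CPM in control, 5797 and 7054 CPM in peak and 11268, 11342 and 9468 CPM in chronic microglia. Letters name libraries only and show no pairing. The libraries came in 4 sequencing pools, and no pool held both disease stages. Barcodes were mostly unique, with 52 found in over 1 library (104 cells).

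The genes lie in a few clusters of the mouse genome (GRCm38 coordinates of the GENCODE reference annotation). Gbp5, Gbp7, Gbp3 and Gbp2 sit on the forward strand of chromosome 3 between 142493978 and 142638008. Gbp8 spans 105014150 to 105139540 on the reverse strand of chromosome 5, where the annotation overlaps it with Gbp9 and Gbp4 on the same strand. Irgm1 (48861968 to 48871683) and Tgtp2 (49057194 to 49064206) lie on the reverse strand of chromosome 11, and Igtp and Irgm2 overlap each other on its forward strand between 58199556 and 58222782. Tgtp2 is an uncertain entry: 94.7% of its 31-base stretches also occur in other genes, and 93.3% occur in Tgtp1, so reads could be split between these copies or lost. For Gbp8 the shared part was 31.2%, for Igtp 16.4% (with Irgm2), and for the other members 1.68 to 14.8%.

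Upstream windows of 5 members are shown because they hold the letters that the interferon pathway reads, in 3 layouts. Each is the 250 bases before a RefSeq gene start, in 5′ to 3′ direction of the gene (GRCm38.p6). Capitals mark matches on either strand to the GAS core TTCNNNGAA and to the ISRE core, which is GAAA, any 2 bases and GAAA. The windows are Igtp at chr11:58199306-58199555 (forward strand), Irgm2 at chr11:58214727-58214976 (forward), Tgtp2 at chr11:49064213-49064462 (reverse), Irgm1 at chr11:48871421-48871670 (reverse) and Gbp2 at chr3:142620413-142620662 (forward).
Igtp: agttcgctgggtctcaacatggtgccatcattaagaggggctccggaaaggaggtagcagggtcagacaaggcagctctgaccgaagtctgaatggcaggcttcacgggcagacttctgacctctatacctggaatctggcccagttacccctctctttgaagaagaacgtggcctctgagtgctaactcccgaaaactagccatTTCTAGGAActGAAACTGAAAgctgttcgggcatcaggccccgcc
Irgm2: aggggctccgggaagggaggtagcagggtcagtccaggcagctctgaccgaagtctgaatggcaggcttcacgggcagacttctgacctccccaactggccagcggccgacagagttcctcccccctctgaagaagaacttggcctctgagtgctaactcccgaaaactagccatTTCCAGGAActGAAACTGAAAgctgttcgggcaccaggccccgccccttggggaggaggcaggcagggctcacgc
Tgtp2: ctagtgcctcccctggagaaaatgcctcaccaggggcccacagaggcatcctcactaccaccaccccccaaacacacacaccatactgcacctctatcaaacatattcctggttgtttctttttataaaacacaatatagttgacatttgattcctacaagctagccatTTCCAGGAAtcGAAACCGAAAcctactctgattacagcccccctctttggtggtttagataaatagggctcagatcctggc
Irgm1: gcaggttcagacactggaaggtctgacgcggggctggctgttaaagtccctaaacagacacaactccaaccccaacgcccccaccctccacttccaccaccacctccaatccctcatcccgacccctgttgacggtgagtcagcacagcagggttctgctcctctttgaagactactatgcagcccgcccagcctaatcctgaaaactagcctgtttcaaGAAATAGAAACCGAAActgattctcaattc
Gbp2: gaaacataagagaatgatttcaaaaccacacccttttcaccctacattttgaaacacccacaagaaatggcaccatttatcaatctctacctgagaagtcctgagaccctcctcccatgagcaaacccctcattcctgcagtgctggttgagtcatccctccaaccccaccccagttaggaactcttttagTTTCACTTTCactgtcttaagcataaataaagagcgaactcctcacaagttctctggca
In Igtp, Irgm2 and Tgtp2 a GAS core began 11 bases before an ISRE core, with no other capitals in the window. Irgm1 held 2 overlapping ISRE cores and no GAS core, and Gbp2 held 1 ISRE core and no GAS core. The RefSeq promoter table had windows for 8 of the 10 members (Gbp8 and Iigp1 had none). All 8 held an ISRE core in at least 1 window, and 5 (Gbp5, Gbp7, Igtp, Irgm2 and Tgtp2) also held a GAS core. Of all 32851 windows in the table, 2.98% held an ISRE core, 7.02% a GAS core and 0.332% both. A match describes letters only, and binding was not measured.

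The first question was how the genes differed at the height of disease, and it set microglia at the peak of EAE against control microglia. At the peak 9 of the 10 GTPase genes were higher and none lower, against 22.0% of the 11479 genes tested called, 12.3% higher and 9.67% lower (edgeR quasi-likelihood test, adjusted p under 0.05). The sum of the 10 genes reached 3121 and 2848 CPM in peak microglia, against 194, 289 and 194 CPM in control microglia. The median log2 fold change of the 10 was 4.20, beside 0.00 over all genes tested. Irgm2 was the member not called. Fold changes were fitted with TMM scaling and levels were not, so the 2 can differ: on library size alone the median of all genes moved to -0.32 in this comparison and to -0.49 for chronic over control microglia.

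Among the GBPs, Gbp2, which in mice gathers on the vacuole of Toxoplasma, stood at 417 and 669 CPM in peak microglia, against 8.68, 8.86 and 5.71 CPM in control microglia. Both peak libraries lay far above all 3 controls, and the log2 fold change was 6.50 ± 0.90 (SE; adjusted p = 0.000265). Gbp3 had 118 and 139.9 CPM in peak microglia and 10.0, 15.3 and 9.78 CPM in control microglia, a log2 fold change of 3.83 ± 0.40 (adjusted p = 3.06e-05). Gbp5, known for its part in inflammasome activation, had 300.3 and 198 CPM in peak and 10.6, 15.9 and 12.6 CPM in control microglia. Its log2 fold change was 4.58 ± 0.55 (adjusted p = 9.47e-05), again with no overlap between the groups. Gbp7, which takes part in oxidative defence, was well detected in controls too, with 405 and 307 CPM in peak and 46.8, 69.2 and 47.3 CPM in control microglia and a log2 fold change of 3.04 ± 0.55 (adjusted p = 0.00164).

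Gbp8 was all but undetected in control microglia. It had 141 and 91.1 CPM in peak microglia, against 0.442, 0.185 and 0.0968 CPM in control microglia, where the 3 sums held 3, 1 and 1 UMIs. Pooled over libraries the ratio was 499.7, with an exact counting interval of 214 to 1542 that covers counting error only. The fitted log2 fold change of 9.18 ± 0.85 depends on the prior count and is no bound (adjusted p = 1.11e-05).

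Both effector IRGs were higher. Iigp1 stood at 1236 and 927 CPM in peak microglia, against 1.32, 6.46 and 1.26 CPM in control microglia, and its log2 fold change was 8.92 ± 0.88 (adjusted p = 2.14e-05). Control b, at 6.46 CPM, was the highest of the controls and still far below either peak library. Tgtp2, counted at low levels, had 25.5 and 23.1 CPM in peak and 0.147, 1.85 and 0.774 CPM in control microglia (1, 10 and 8 UMIs), with a log2 fold change of 5.11 ± 0.62 (adjusted p = 9.28e-05).

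The regulator IRGs were already well detected in controls. Irgm1, needed in mice for resistance to mycobacteria, had 289 and 299 CPM in peak and 35.8, 65.9 and 41.0 CPM in control microglia, a log2 fold change of 2.99 ± 0.54 (adjusted p = 0.00164). Igtp had 119.9 and 160.5 CPM in peak and 53.7, 61.3 and 53.6 CPM in control microglia, a log2 fold change of 1.67 ± 0.50 (adjusted p = 0.0277). The Igtp groups did not overlap, but its call was lost without any 1 of the 5 libraries (adjusted p 0.054 to 0.206) and on library size alone (0.0556). Irgm2 had 70.1 and 32.8 CPM in peak microglia, against 26.5, 43.9 and 21.4 CPM in control microglia, so the groups overlapped in CPM. These levels leave out the TMM factors, 1.16 and 0.995 for peak and 1.31, 1.45 and 1.31 for control microglia. The overlap need not hold on the scale of the fit. The log2 fold change of Irgm2 was 1.07 ± 0.46 (95% interval 0.08 to 2.06, adjusted p = 0.116).

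**Figure D1:**
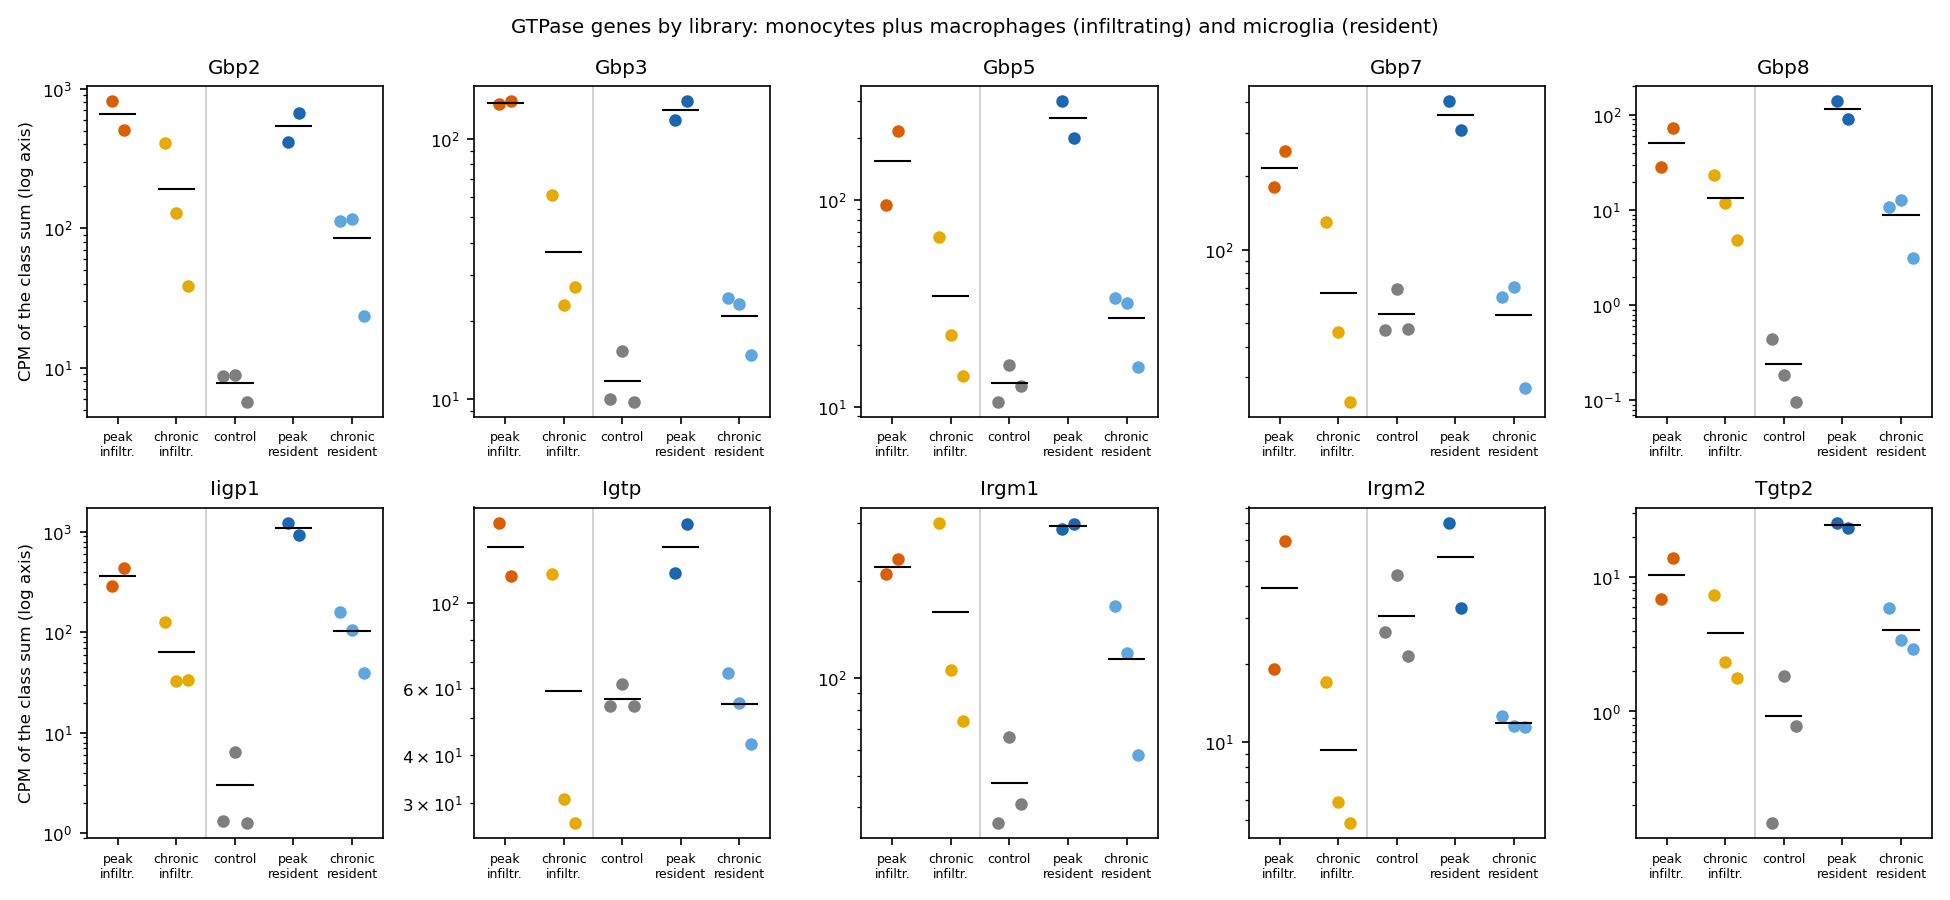
Level of each GTPase gene in every library, in CPM of the class sum on log axes, with 1 point a library and a line at the group mean; infiltrating groups stand left of the grey divider and resident groups right of it. For 9 of the 10 genes both peak resident points lie above all 3 control points, and for Irgm2 they overlap on this scale without TMM factors.

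Control b and both peak resident libraries were in 1 sequencing pool. Within it all 10 genes had a higher mean in peak microglia, with a median log2 ratio of 3.39, from 0.23 for Irgm2 to 9.29 for Gbp8. That pool spanned 2 batch dates. On the date that peak resident b shared with control b, 9 genes were higher in the peak library and Irgm2 was lower, with a median log2 ratio of 3.42. These ratios leave out the TMM factors, 0.995 for peak resident b and 1.45 for control b. The sign for Irgm2 on that date need not hold on the scale of the fit. The class composition also moved with the stage. T cells were 1.13 and 1.36% of peak resident libraries and at most 0.0557% of control libraries, while inside the microglial sums the 4 measured T cell markers totalled 0.715 and 0.474 CPM in peak microglia (Cd3e at 0 in library a, Cd3g and Cd2 at 0 in library b) and were all at 0 in control microglia. The 5 monocyte markers totalled 13.8 and 38.9 CPM in peak microglia, against 4.12, 7.20 and 2.52 CPM in control microglia, with Ccr2 at 0 in peak resident b and Ly6c2 and Chil3 at 0 in controls b and c. Median mitochondrial content was 2.63 and 2.27% in peak and 1.08, 1.46 and 1.09% in control microglia. The 6 macrophage markers, which include C1qa and Adgre1 that microglia also express, totalled 13784 and 13929 CPM in peak microglia, against 12616, 10610.0 and 12505 CPM in control microglia. Of these, Fn1 had 56.0 and 67.8 CPM in peak and 0.736, 0.369 and 1.16 CPM in control microglia, and Ms4a7 had 6.91 and 5.69 CPM in peak and 1.03, 0 and 0.290 CPM in control microglia. Mrc1 was at 0 in peak resident a, Arg1 in control a and Ms4a7 in control b. The part of depth, RNA quality and other cells in the result was not tested. The labels number the samples of a group as biological replicates without naming animals, and the p-values measure the spread between these libraries.

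Sums do not show how many cells carried the RNA, so shares of cells with a UMI were also taken. Such a share rises with RNA per cell too, so it does not separate more cells with the RNA from more RNA per cell. Cells were thinned to 1000 UMIs each. This left out 4, 1 and 9 control, 6 and 5 peak and 31, 34 and 15 chronic microglia. At least 1 UMI of 3 or more of the 10 genes was then present in 35.0% (95% interval 30.7 to 39.5%) and 27.6% (95% interval 24.3 to 31.1%) of microglia in the peak libraries. The same share was 0.227, 0.348 and 0.217% in the control libraries. Without thinning the shares were 89.7 and 91.1% in peak and 2.60, 9.49 and 1.70% in control microglia. An Iigp1 UMI was found in 49.2 and 41.9% of thinned peak microglia, against 0.113, 0.348 and 0.0620% of thinned control microglia (83.7 and 82.8% against 0.339, 1.48 and 0.124% unthinned). T cells of the peak infiltrating libraries, with median depths of 7258 and 7022 UMIs, carried an Iigp1 UMI in 0.709 and 0% of 141 and 47 thinned cells, where 0 of 47 allows up to 7.55%. Intervals of shares are exact Clopper-Pearson intervals and cover counting error only.

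In the chronic phase 7 of the 10 genes were higher than in control microglia and none was called lower, beside 17.7% of all genes called, 11.3% higher and 6.46% lower. The same control libraries serve here as above. The sum of the 10 stood at 656, 551 and 239 CPM in chronic microglia, against 194, 289 and 194 CPM in control microglia. On these levels, which leave out the TMM factors, chronic resident c lay within the range of the controls. For each of the 10 genes chronic resident c, the only chronic resident library of its pool, was the lowest of its group. Of thinned chronic microglia 3.26, 2.19 and 0.491% carried UMIs of 3 or more of the genes, against 0.227, 0.348 and 0.217% of control microglia (17.8, 13.2 and 5.64% against 2.60, 9.49 and 1.70% unthinned). The median log2 fold change was 1.68, beside -0.01 over all genes.

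Gbp2 had 113, 117 and 23.7 CPM in chronic microglia, against 8.68, 8.86 and 5.71 CPM in control microglia, a log2 fold change of 3.98 ± 0.79 (adjusted p = 0.00374). Iigp1 had 159.6, 106 and 39.7 CPM in chronic and 1.32, 6.46 and 1.26 CPM in control microglia (5.71 ± 0.77, adjusted p = 0.000227). For both genes all 3 chronic libraries were above all 3 controls, and the same held for Gbp8 and Tgtp2. Gbp8 had 10.8, 12.8 and 3.17 CPM in chronic microglia, against 0.442, 0.185 and 0.0968 CPM in control microglia, a pooled ratio of 30.8 (counting interval 12.98 to 95.7). Tgtp2 had 5.92, 3.39 and 2.89 CPM in chronic and 0.147, 1.85 and 0.774 CPM in control microglia (2.67 ± 0.61, adjusted p = 0.00902).

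Gbp3, Gbp5 and Irgm1 were called higher although their groups overlapped in CPM. CPM leaves out the TMM factors of the fit, which were 1.31, 1.45 and 1.31 for controls a to c and 1.05 for chronic resident c. The overlap therefore need not hold on the scale of the fit. Gbp3 had 24.4, 23.3 and 14.8 CPM in chronic and 10.0, 15.3 and 9.78 CPM in control microglia. Gbp5 had 33.6, 31.9 and 15.5 CPM in chronic and 10.6, 15.9 and 12.6 CPM in control microglia. Irgm1 had 167, 119 and 58.0 CPM in chronic and 35.8, 65.9 and 41.0 CPM in control microglia. In each case chronic resident c lay among the controls in CPM and the other chronic libraries above them. Log2 fold changes were 1.34 ± 0.36, 1.56 ± 0.49 and 1.80 ± 0.49 (adjusted p = 0.0205, 0.0405 and 0.022). All 3 calls were lost without control a, control c, chronic resident a or chronic resident b, which left 4 members called, and with the sequencing pool as a term, which left 2 (Gbp8 and Iigp1). With that term 475 of all genes were called, against 2034 without it.

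Gbp7 and Igtp were not called. Gbp7 had 63.8, 70.6 and 27.2 CPM in chronic and 46.8, 69.2 and 47.3 CPM in control microglia (log2 0.51, 95% interval -0.54 to 1.55), and Igtp had 65.7, 54.6 and 42.6 CPM in chronic and 53.7, 61.3 and 53.6 CPM in control microglia (0.45, -0.52 to 1.42). On library size alone both turned negative, Gbp7 to -0.020 and Igtp to -0.052. Irgm2 differed in sign: 12.6, 11.6 and 11.4 CPM in chronic microglia lay below all of 26.5, 43.9 and 21.4 CPM in control microglia. Its log2 fold change was -0.86 ± 0.43 (adjusted p = 0.175). On library size alone its adjusted p was 0.0434, but 3432 of all genes were then called lower, against 742 in the main fit. Within the pool that held control c and chronic resident c, 7 genes were higher in the chronic library and 3 lower (Gbp7, Igtp and Irgm2). Log2 ratios there were 4.98 for Iigp1, 2.05 for Gbp2 and 0.30 for Gbp5. These ratios leave out the TMM factors, 1.31 for control c and 1.05 for chronic resident c. The split into higher and lower genes need not hold on the scale of the fit. T cells made up 2.52, 6.15 and 0.816% of chronic resident and at most 0.0557% of control libraries, and the 4 T cell markers totalled 2.81, 4.47 and 1.28 CPM in chronic and 0 in control microglial sums. The 6 macrophage markers totalled 11288, 11483 and 15308 CPM in chronic and 12616, 10610.0 and 12505 CPM in control microglia. Among them Fn1 had 273, 134 and 83.3 CPM in chronic and 0.736, 0.369 and 1.16 CPM in control microglia, and Ms4a7 had 68.7, 111 and 68.1 CPM in chronic and 1.03, 0 and 0.290 CPM in control microglia, with none of the 6 at 0 in a chronic library. The 5 monocyte markers totalled 4.59, 3.70 and 2.23 CPM in chronic and 4.12, 7.20 and 2.52 CPM in control microglia. The part of T cell and macrophage RNA was not tested.

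Chronic microglia were next set against peak microglia, with libraries that the comparisons above also used. Of the 10 genes 7 were lower and none higher, beside 9.79% of all genes called, 4.75% higher and 5.04% lower, and the median log2 fold change was -2.50 (all genes 0.02). Every chronic library lay below both peak libraries for each of the 10 genes. How many of all genes tested separate in this way was not counted, here or in the other comparisons. Of 17 interferon-gamma pathway genes described below, 16 separated in either direction. So did 9 of 12 other GTPase genes and 4 of 11 type I interferon genes. Gbp8 fell the most on this scale, to 10.8, 12.8 and 3.17 CPM in chronic microglia, against 141 and 91.1 CPM in peak microglia (log2 -3.55 ± 0.58, adjusted p = 0.00553). Iigp1 changed by -3.21 ± 0.68, Gbp5 by -3.02 ± 0.52, Gbp7 by -2.54 ± 0.54, Gbp3 by -2.49 ± 0.38, Tgtp2 by -2.45 ± 0.52 and Irgm2 by -1.93 ± 0.47 (adjusted p from 0.00429 to 0.0278).

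The members not called were Gbp2 at -2.52 ± 0.77 (adjusted p = 0.0518), Igtp at -1.22 ± 0.50 and Irgm1 at -1.18 ± 0.52, with 95% intervals of -4.16 to -0.88, -2.29 to -0.16 and -2.30 to -0.07. Irgm1 had 167, 119 and 58.0 CPM in chronic and 289 and 299 CPM in peak microglia. Calls depended on which library was left out. The fitted changes stayed below 0 for every member, from -3.94 to -3.05 for Gbp8 and from -1.58 to -0.82 for Irgm1. Without chronic resident b 4 members and 201 of all genes were called. With the sequencing pool as a term 0 members and 1 of all genes were called. The 7 members called without that term then had log2 fold changes from -3.75 (Gbp5) to -1.19 (Irgm2). No pool held both stages, so stage and pool cannot be told apart within a pool. Median UMIs per cell were also lower in chronic than in peak microglia, as given above. Median mitochondrial content was 0.966, 0.987 and 1.47% in chronic and 2.63 and 2.27% in peak microglia. T cells were 2.52, 6.15 and 0.816% of chronic and 1.13 and 1.36% of peak resident libraries, and the T cell markers in the microglial sums totalled 2.81, 4.47 and 1.28 CPM in chronic and 0.715 and 0.474 CPM in peak microglia. The monocyte marker sum was lower in every chronic than in either peak library, and the macrophage genes Fn1 and Ms4a7 were higher. Summed over all macrophage markers, chronic resident a and b were lower and chronic resident c higher than either peak library. All these values are given above. The part of these in the fall was not tested.

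**Figure D2:**
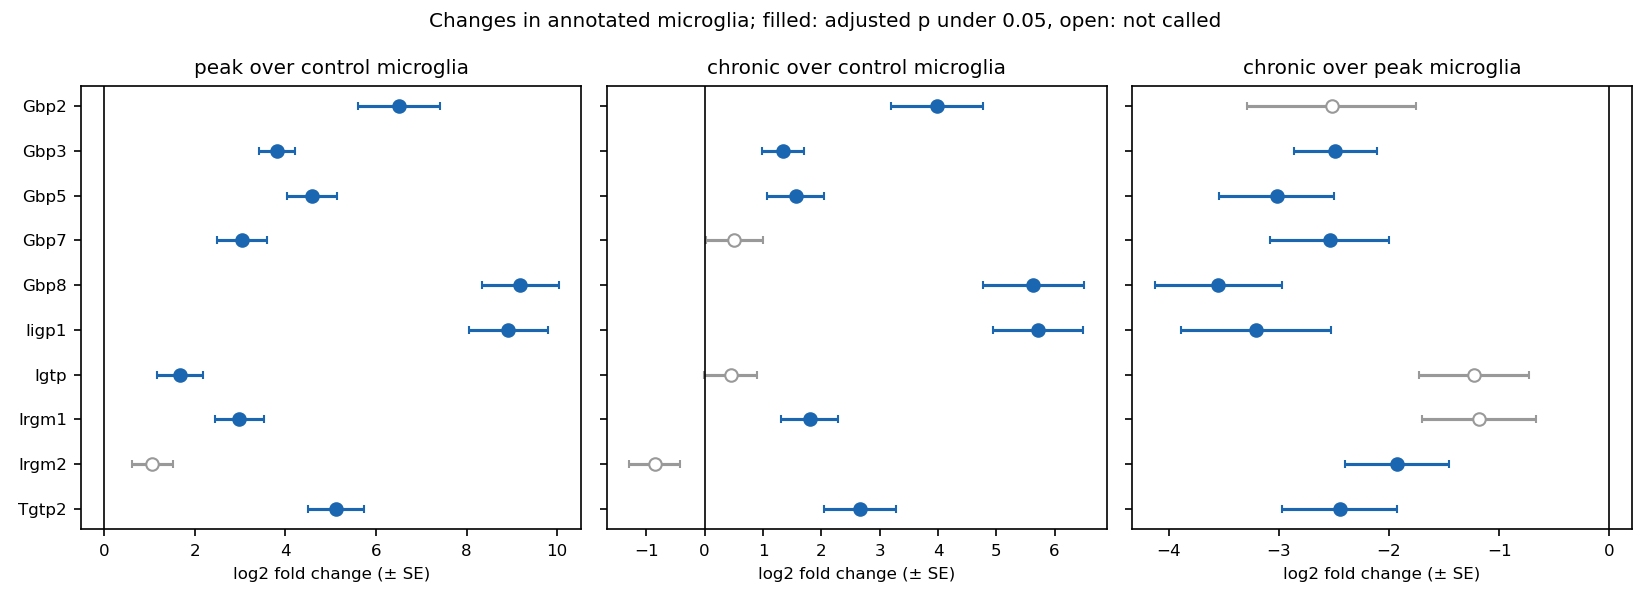
Log2 fold change (± SE) of each GTPase gene in microglia for peak over control, chronic over control and chronic over peak; filled points have an adjusted p under 0.05. All 10 points lie right of zero at the peak and all 10 lie left of zero for chronic over peak, where Gbp2, Igtp and Irgm1 are open.

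The authors' deposited clusters divide the microglia further. They were made from the same counts, so levels by cluster are a description with no test. At the peak, cluster 3 held 68.9 and 56.4% of microglia, cluster 4 held 22.6 and 35.1% and cluster 2 held 7.20 and 8.10%. The sum of the 10 genes was 3481 and 3259 CPM in cluster 3, 2361 and 2248 CPM in cluster 2 and 1745 and 1892 CPM in cluster 4 (libraries a and b). The order was the same in both libraries, and the clusters did not overlap. Iigp1 followed it, with 1420.3 and 1165 CPM in cluster 3 and 629 and 342 CPM in cluster 4. Gbp2 did not: its levels were 421 and 649 CPM in cluster 3, 426 and 656 CPM in cluster 2 and 396 and 737 CPM in cluster 4, and the 3 clusters overlapped.

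In the chronic phase cluster 3 held 21.9, 30.7 and 9.32% of microglia in libraries a, b and c, and cluster 1 held 19.7, 20.7 and 62.3%. The sum of the 10 genes was 1151, 789 and 665 CPM in chronic cluster 3, against 3481 and 3259 CPM in the same cluster at the peak. Cluster 4 stood at 483, 454 and 143 CPM in the chronic phase, against 1745 and 1892 CPM at the peak. Within both clusters the stages did not overlap. Chronic cluster 1 had 387, 439 and 243 CPM. In controls most microglia were in cluster 9 (90.4, 87.8 and 94.6%), with a sum of 192, 260.1 and 192 CPM. Cluster 3 was rare there (0.791, 3.74 and 0.711%), but the 43 and 23 cells of controls b and c in it summed to 1194 and 1091 CPM. In these cells Irgm1 had 341 and 379.9 CPM, against 34.2, 54.7 and 39.8 CPM in cluster 9 of the 3 controls.

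**Figure D3:**
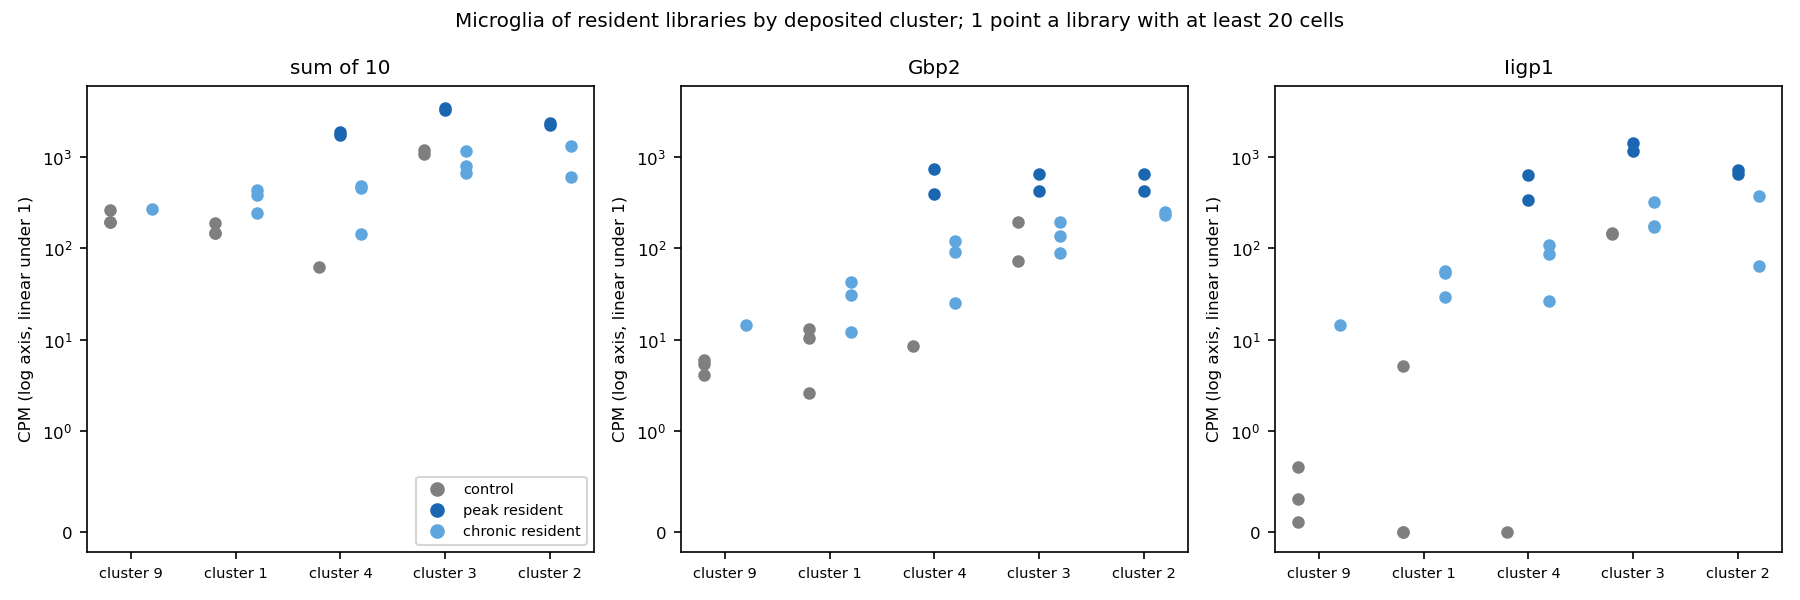
Sum of the 10 genes, Gbp2 and Iigp1 in microglia of resident libraries by deposited cluster, in CPM on a log axis that is linear under 1, with 1 point a library holding at least 20 cells of the cluster; cluster 10, a small control cluster, is not drawn. Cluster 3 is highest for the sum and for Iigp1 at the peak, while Gbp2 at the peak spans 396 to 737 CPM in cluster 4 and 421 to 649 CPM in cluster 3.

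Infiltrating monocytes and macrophages of the chronic phase were compared with those of the peak. Only Gbp3 was called lower and no member higher, beside 0.793% of all genes called, 0.566% higher and 0.227% lower. All 10 fitted changes were below 0, with a median log2 fold change of -1.68 (all genes -0.02). The sum of the 10 was 1258, 410.0 and 249 CPM in chronic and 1935 and 2051 CPM in peak infiltrating libraries. Chronic infiltrating a was the highest of its group for each of the 10 genes. The mix of cells also differed: the sums held 157, 77 and 86 monocytes and 350, 265 and 199 macrophages in the chronic phase (libraries a to c), against 1023 and 177 monocytes and 686 and 180 macrophages at the peak (libraries a and b). The 5 monocyte markers totalled 3564, 1482 and 812 CPM in chronic and 9301 and 5103 CPM in peak sums. Within monocytes alone the sum of the 10 was 1649, 394 and 217 CPM in chronic and 2244 and 2283 CPM in peak libraries, and within macrophages alone 1119, 413 and 263 CPM in chronic and 1506 and 1842 CPM in peak libraries. In neither class did the stages overlap, a description with no test.

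Gbp3 had 60.8, 23.0 and 27.0 CPM in chronic and 136 and 139.5 CPM in peak infiltrating cells, with no overlap and a log2 fold change of -1.78 ± 0.38 (adjusted p = 0.0459). Iigp1 had 126, 32.7 and 33.6 CPM in chronic and 286 and 441 CPM in peak infiltrating cells (-2.35 ± 0.67, adjusted p = 0.115). Gbp2 had 407, 129 and 38.5 CPM in chronic and 814 and 507 CPM in peak infiltrating cells (-1.70 ± 0.76, adjusted p = 0.275). For Irgm1, 302, 106 and 73.8 CPM in chronic cells spanned 209 and 233 CPM in peak cells, and its log2 fold change was -0.34 ± 0.52 (95% interval -1.46 to 0.78), or 0.014 without chronic infiltrating c. Without chronic infiltrating a 7 members were called lower, and without any other library of the comparison 0. No infiltrating pool held both stages, so pool and stage cannot be told apart.

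At the peak, infiltrating monocytes and macrophages were set against resident microglia. No member was called, while 29.9% of all genes were, 13.9% higher and 16.0% lower. No member had an unadjusted p under 0.05, and DESeq2 called 0 as well. Iigp1 showed the widest gap, with 286 and 441 CPM in infiltrating cells and 1236 and 927 CPM in microglia, and the groups did not overlap (log2 -1.27 ± 0.74, 95% interval -2.86 to 0.31, adjusted p = 0.208). Gbp2 lay on the other side, with 814 and 507 CPM in infiltrating cells and 417 and 669 CPM in microglia (0.61 ± 0.84, -1.19 to 2.40). These intervals are wide, and likeness of the populations is not shown. Within the 1 pool that held both populations, 8 genes were lower and 2 higher in infiltrating cells, with a median log2 ratio of -0.30 and -1.29 for Iigp1. Peak infiltrating b and peak resident a shared a batch date, and between them the median log2 ratio was -0.40, again with 8 genes lower. Both sets of ratios leave out the TMM factors, 0.956 for peak infiltrating b and 1.16 and 0.995 for peak resident a and b. Ratios over all genes are not given beside them, so the 8 lower genes are not shown to differ from the rest.

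In the chronic phase Gbp3 was the member called between the populations in the fit without a pool term, beside 26.1% of all genes called, 12.4% higher and 13.7% lower. It had 60.8, 23.0 and 27.0 CPM in infiltrating monocytes and macrophages and 24.4, 23.3 and 14.8 CPM in microglia, so the groups overlapped (log2 1.11 ± 0.35, adjusted p = 0.0312). The call was lost without chronic infiltrating a, chronic resident b or chronic resident c (adjusted p 0.0536 to 0.283), with all cells of a library (0.261) and on library size alone (0.0721). With the pool as a term Gbp2 (1.33, adjusted p = 0.0142) and Gbp8 (0.85, adjusted p = 0.0333) were called higher as well. The other 9 members ranged from -0.42 for Iigp1 to 1.43 for Gbp2 (95% intervals -1.71 to 0.88 and -0.07 to 2.93). Within the pool of chronic resident a and b the median log2 ratio was 0.41, with 8 genes higher in infiltrating cells, and within that of chronic resident c it was -0.16, with 4 higher. These ratios also leave out the TMM factors and stand without ratios over all genes.

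Whether the fall from peak to chronic phase differed between infiltrating cells and microglia was tested as the difference of the 2 changes. No member was called, beside 0.0436% of all genes, all of them lower, and DESeq2 also called 0. All 10 differences were above 0, a smaller fitted fall in infiltrating cells, with a median of 0.85, but the sign was not stable. Without chronic infiltrating a 5 members turned below 0, namely Gbp2 (-0.37), Iigp1 (-0.13), Igtp (-0.996), Irgm1 (-0.0065) and Irgm2 (-0.73). Igtp was also below 0 without peak resident b, chronic resident c or peak infiltrating b, and Irgm2 without peak resident a or peak infiltrating a and with the pool term (-0.29). Only Gbp8 had an unadjusted p under 0.05 (log2 1.88 ± 0.82, 95% interval 0.13 to 3.64, adjusted p = 0.667).

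Levels across all deposited classes with at least 20 cells in a library are given as a description. At the peak the sum of the 10 genes was 2263 ± 27.1 CPM in infiltrating monocytes, 2076 ± 273 CPM in dendritic cells, 1674 ± 238 CPM in macrophages and 372 ± 105 CPM in T cells (SD, n = 2). Macrophages of the peak resident libraries, 50 cells in all, had 3604 ± 860.4 CPM, next to 2984 ± 193 CPM in microglia of the same libraries (SD, n = 2). T cells were lowest in both peak infiltrating libraries, and the dendritic cells and monocytes did not differ beyond their spread. In the chronic resident libraries T cells had 692 ± 207 CPM, microglia 482 ± 217 CPM and macrophages 419 ± 254 CPM (SD, n = 3). In chronic infiltrating libraries the classes ranged from 373 ± 239 CPM in microglia (n = 2) to 767 ± 760.4 CPM in dendritic cells (n = 3), and the ranges of all 5 classes overlapped.

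Ifng itself, the gene for the inducing cytokine, was read mainly in the deposited T cell class. Of its 960 UMIs, 899 (93.6%) were in the 574 T cells, 41 in macrophages, 16 in monocytes and 4 in microglia, and none were in dendritic cells. That T cell class carried natural killer markers at a summed 2146 CPM, beside 4404 CPM for T cell markers. The deposited classes hold no natural killer class, so the 2 cell types are not told apart here. In T cells it stood at 425 ± 65.95 CPM in peak infiltrating (n = 2), 121 ± 39.9 CPM in chronic infiltrating and 126 ± 97.0 CPM in chronic resident libraries (SD, n = 3 each). No Ifng UMI was counted in 6155 control and 1190 peak resident microglia. Ifng did not pass the filter in the class sums, so it was not tested. For Gbp2 the T cell level in peak infiltrating libraries was 40.1 ± 21.1 CPM, against 833 ± 217 CPM in monocytes. For Gbp8 it was 22.8 ± 9.85 CPM in T cells and 54.1 ± 33.5 CPM in monocytes (SD, n = 2).

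**Figure D4:**
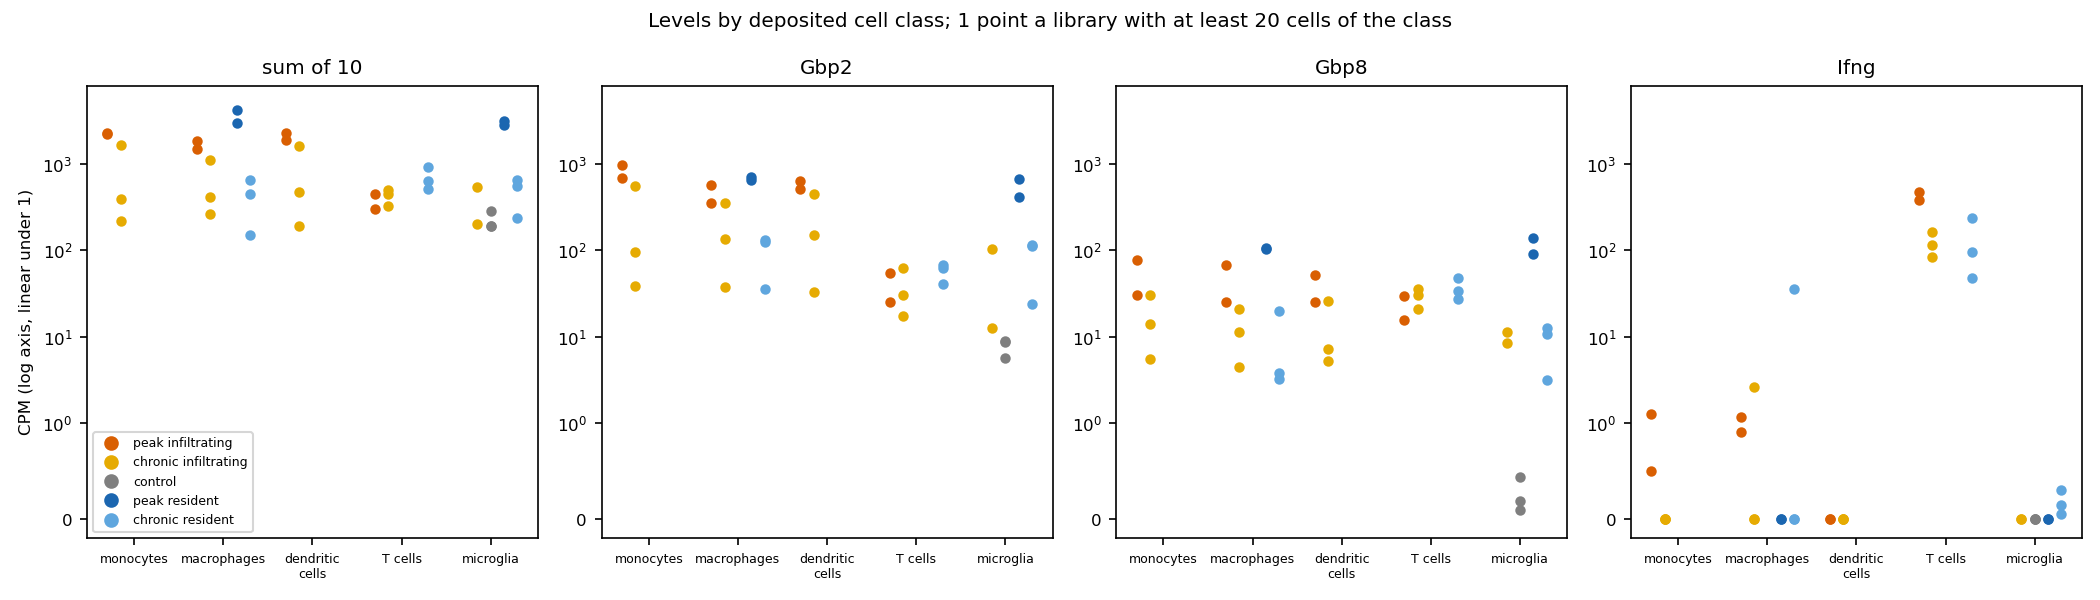
Sum of the 10 genes, Gbp2, Gbp8 and Ifng by deposited cell class, in CPM on a log axis that is linear under 1, with 1 point a library holding at least 20 cells of the class, coloured by group. Ifng stands at 47.4 to 472 CPM in T cells and at 0 in control and peak resident microglia.

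The GTPases were read beside 3 lists of related genes, each described by its counts in the same fits. Of 12 other GBP and IRG genes tested, 9 were higher and 0 lower in peak than in control microglia (median log2 fold change 5.26). Of all genes 12.3% were higher and 9.67% lower. Gbp6 changed by 6.85 ± 0.57, F830016B08Rik by 6.15 ± 0.68, Gbp2b by 8.87 ± 1.07, Gbp4 by 7.62 ± 1.02, Gm4951 by 4.54 ± 0.64 and Tgtp1 by 7.20 ± 1.03, and these 6 calls held in every alternative that gave a value. Gbp2b had 0 UMIs in each control sum, and Tgtp1 had 0, 1 and 0. The fitted fold changes of both depend on the prior count and are no bounds. Tgtp1 had 7.63 and 7.90 CPM in peak and 0, 0.185 and 0 CPM in control microglia, and its reads are shared with Tgtp2 as described. In the chronic phase 5 of the 12 were higher than in controls and 0 lower, beside 11.3% of all genes higher and 6.46% lower. Against the peak 7 were lower and 0 higher, beside 5.04% of all genes lower and 4.75% higher. The medians of the 12 were 2.39 and -1.94.

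Of 17 genes of interferon-gamma signalling, 11 were higher and 2 lower in peak than in control microglia (median 2.63). Of all genes 12.3% were higher and 9.67% lower. The chemokine gene Cxcl9 changed by 9.12 ± 0.58, the MHC class II transactivator Ciita by 9.43 ± 0.81, the MHC class I transactivator Nlrc5 by 4.67 ± 0.64, the checkpoint ligand Cd274 by 4.15 ± 0.46, and the signal carrier Stat2 by 2.79 ± 0.44. These 5 calls held in all 11 alternatives. Ciita had 0, 0 and 5 UMIs in the control sums, so its fitted fold change depends on the prior count and is no bound. The lower genes were the receptor chain Ifngr1, at -1.82 ± 0.41 (adjusted p = 0.00639), and the kinase Jak1, at -0.92 ± 0.26 (adjusted p = 0.0195). The other receptor chain, Ifngr2, was not called at -0.47 ± 0.24 (adjusted p = 0.182). Nor was the other kinase, Jak2, which lay above 0 at 0.82 ± 0.35 (adjusted p = 0.115). Ifngr1 had 239 and 283 CPM in peak microglia, against 1174, 1033 and 1293 CPM in control microglia, with no overlap.

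Chronic microglia had 7 of these 17 genes higher than controls and 0 lower, beside 11.3% of all genes higher and 6.46% lower. Against peak microglia 6 were lower (Ciita, Cxcl9, Stat2, Cd274, Nlrc5 and Jak2) and 2 higher, beside 5.04% of all genes lower and 4.75% higher. The higher genes were Ifngr1 at 1.38 ± 0.40 and its partner chain Ifngr2 at 0.81 ± 0.24 (adjusted p = 0.0455 and 0.0485). With the sequencing pool as a term 1 gene of all those tested was called in this comparison. Between chronic infiltrating cells and chronic microglia 5 pathway genes were higher and 0 lower, among them Ciita at 2.76 ± 0.53 and Cxcl9 at 2.22 ± 0.40, beside 12.4% of all genes higher.

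Of 11 genes chiefly known from the type I interferon response, 7 were higher and 0 lower in peak than in control microglia (median 2.49). Of all genes 12.3% were higher and 9.67% lower. The antiviral genes Oasl2 and Ifit2 changed by 3.18 ± 0.75 and 3.15 ± 0.75, and these calls held in 11 and 10 of 11 alternatives. Those of Rsad2 and Usp18 were lost in 8 of 11. In chronic microglia 4 were higher than in controls and 0 lower, beside 11.3% of all genes higher and 6.46% lower. Among the 4, Irf7, a transcription factor of that response, changed by 3.59 ± 0.95 (call lost in 6 of 12 alternatives). Against peak microglia none of the 11 was lower and 1 was higher, beside 5.04% of all genes lower and 4.75% higher. The higher gene was the receptor chain Ifnar2 (1.05 ± 0.28, call lost in 9 of 11 alternatives). The median of the 11 was -0.49, beside -2.50 for the 10 GTPases and 0.02 for all genes. In infiltrating cells the medians for chronic over peak were -0.16 for the type I genes and -1.68 for the GTPases. Whether the lists differ was not tested.

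**Figure D5:**
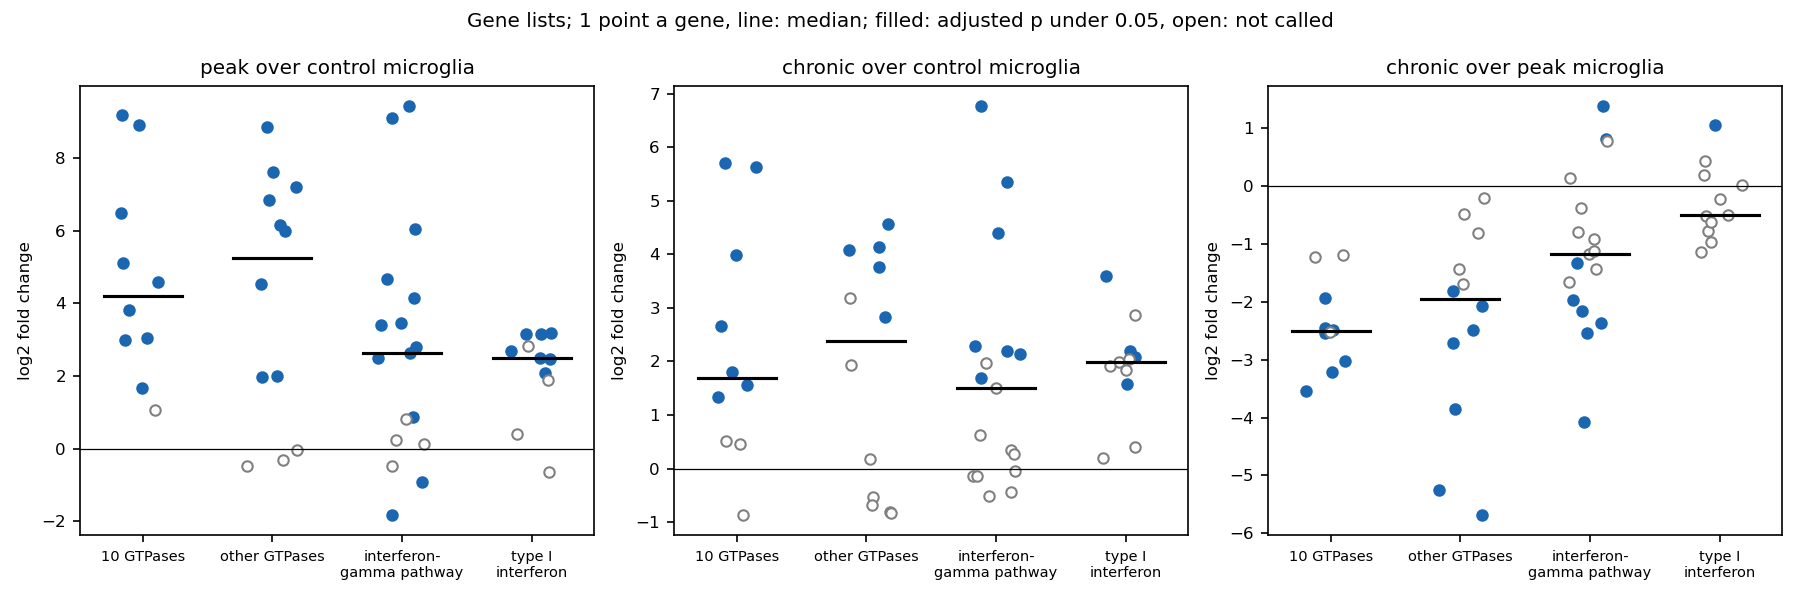
Log2 fold changes in microglia for peak over control, chronic over control and chronic over peak, with 1 point a gene, grouped by list, filled where the adjusted p is under 0.05, and a line at the list's median. For chronic over peak the medians are -2.50 for the 10 GTPases, -1.94 for the other GTPases, -1.17 for the interferon-gamma pathway and -0.49 for the type I genes.

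Over the 13 class sums the 10 genes varied together unevenly. Pearson's r between pairs of members on log2 CPM ran from 0.33 to 0.97, with a median of 0.90 over 45 pairs. Gbp2 with Irgm1 gave the highest value and Gbp2 with Irgm2 the lowest. The genes most like the members' mean profile, of 4042 candidates outside the lists, were Parp12 (r = 0.96), Tapbp (0.96), Rnf114 (0.96), Ifi204 (0.95) and Tap1 (0.95). Tap1 encodes a subunit of the peptide transporter that feeds MHC class I, and Tapbp encodes tapasin, which holds MHC class I to it. These values describe 13 sums that share groups, pools and depth.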

How the data were processed

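The authors deposited raw UMI counts per gene and cell as a sparse matrix, and a cell table with library, pool, class, cluster and doublet mark. In that deposited table mitochondrial content is a percent (at most 5 here) and depth the log10 of total UMIs. 0 cells were marked as doublets. Cell Ranger 3.1.0, R 4.1.3 and the builds GRCm38 and mm10 are named in the submitters' processing notes, while the annotation and strand setting of the counting were not given in the sources used here. The cell table names groups but not replicate numbers, so libraries were placed by condition and gate.

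Counts were summed per library within the class and tested with edgeR 4.0.16 in R 4.3.3 (filterByExpr, TMM, quasi-likelihood F test, 1 fit of 5 group means over 13 libraries, 8 residual degrees of freedom, two-sided, Benjamini-Hochberg over 11479 genes, threshold 0.05). The biological coefficient of variation was 26.0%. SEs and 95% intervals come from the F statistic. Levels are CPM without TMM factors (0.782 to 1.45), so fitted fold changes differ from CPM ratios. Overlap of groups and the ratios within a pool or date were read from these levels. The pipeline was tested on simulated data. All members are named, and up to 6 genes of a list by smallest p, of which 1 is not reported here. Alternatives were library size only, DESeq2 1.42.0, no filter, all cells, pool or batch date as a term, each library left out, a minimum of 50 cells and unthinned cells. Members and lists were chosen with earlier results of these data known.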

Additional observations from a re-analysis of the deposited data

How the results depend on the processing

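Members were called for peak over control microglia in 9 of 10 cases, and in 8 to 10 under the alternatives run. For chronic over control microglia 7 were called, 2 with the sequencing pool or the batch date as a term and 4 to 7 with 1 library left out. For chronic over peak microglia 7 were called, 0 with either term and 2 to 6 with 1 library left out. For chronic over peak infiltrating cells 1 was called, 3 with DESeq2, 6 without the filter, 0 with all cells, 0 with either term and 0 to 7 with 1 library left out. Between the populations in the chronic phase 1 was called, 0 on library size alone, 2 without the filter, 0 with all cells, 3 with either term and 0 to 2 with 1 library left out. The 2 comparisons with 0 called kept 0 throughout. In the chronic over control comparison Gbp5 lost its call in 9 of 12 alternatives, Gbp3 and Irgm1 in 7.

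Counts over all genes were 2525 (996 to 2293 with 1 library left out), 2034 (908 to 3125; 4189 on library size alone, 475 with the pool term, 621 with the date term), 1124 (38 to 891; 260 with all cells, 1 with either term), 91 (8 to 462; 402 with DESeq2, 360 without the filter, 13 with all cells, 1 with either term), 3434 (1701 to 4096; 2220 with all cells), 2991 (1832 to 3329; 188 with all cells, 4846 with the date term) and 5 (0 to 28; 38 with DESeq2, 35 without the filter, 1 with all cells, 2 with the date term), in the order of the text. On library size alone the median over all genes moved to -0.32, -0.49, -0.12, -0.11, -0.36 and -0.33 in the first 6 comparisons, and without the filter to -0.15 in the last. Calls were then 914 higher and 2139 lower, against 1415 and 1110, for peak over control, 757 and 3432, against 1292 and 742, for chronic over control, 1057 and 2492, against 1600 and 1834, between the populations at the peak, and 974 and 2362, against 1424 and 1567, in the chronic phase. With a lone library left in a group, it is assumed to vary like the others. The cause of these moves was not tested.

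No called member changed sign in any alternative. Signs that changed were all of uncalled members. For chronic over control they were Gbp7 at -0.020 and Igtp at -0.052 on library size alone and -0.61 and -0.25 with the pool or the date term. For chronic over peak infiltrating cells the range for Irgm1 with 1 library left out was -1.19 to 0.014. Between the populations at the peak they were Igtp at -0.0012 on library size alone, Irgm1 at 0.052 and Irgm2 at 0.24 with the pool term and 0.16 and 0.080 with the date term, and ranges over left-out libraries of -0.11 to 0.68 for Igtp, -0.25 to 0.036 for Irgm1 and -0.92 to 0.42 for Irgm2. In the chronic phase Irgm2 was -0.27 on library size alone, -0.018 without the filter and -0.053 with the pool and -0.038 with the date term. Ranges there were -0.29 to 1.00 for Gbp5, -0.36 to 0.98 for Gbp7, -0.67 to 0.75 for Igtp, -1.39 to 0.089 for Iigp1, -0.11 to 1.14 for Irgm1, -0.85 to 0.29 for Irgm2 and -0.65 to 0.74 for Tgtp2, and 6 of these fell below 0 without chronic infiltrating a. For the difference of changes Irgm2 was -0.29 with the pool term and -0.12 with the date term, where Igtp was -0.0072, with ranges of -0.37 to 1.39 for Gbp2, -0.996 to 0.51 for Igtp, -0.13 to 1.36 for Iigp1, -0.0065 to 1.25 for Irgm1 and -0.73 to 0.94 for Irgm2.

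A minimum of 50 cells in place of 20 moved no class mean of the summed genes by over 1 SD, and peak resident macrophages then gave no value. No paired analysis was possible because the deposited cell table carries no replicate numbers of the labels. The terms for sequencing pool and batch date match libraries by pool or date instead, and each date fell in 1 pool. The date term was chosen after seeing the data. Groups of 2 or 3 libraries, and control sums with 1 to 3 UMIs of Gbp8, limit the precision of each value.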
